A study of Mus musculus with 20 samples.

Results

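The let-7 guide strands are the mature microRNAs (miRNAs) cut from the 5′ arm of the let-7 hairpins. They were taken by name from the deposited tables, where mmu- marks mouse entries: mmu-let-7a-5p, mmu-let-7b-5p, mmu-let-7c-5p, mmu-let-7d-5p, mmu-let-7e-5p, mmu-let-7f-5p, mmu-let-7g-5p, mmu-let-7i-5p and mmu-miR-98-5p. They are 9 of the 1481 features measured and are written without that prefix from here on. All 9 were present in each of the 6 tables. Small RNA was sequenced from primary cortical neurons that had been isolated from mouse embryos at embryonic day 15 and cultured for 7 days. The wild-type group in normoxia and the wild-type group in oxygen-glucose deprivation (OGD, a culture model of ischaemia) each held 5 libraries, as did the knockout groups in normoxia and in OGD. In the knockout the circular RNA ciRS-7 (Cdr1as), a neuronal transcript with many sites for miR-7, is deleted; the strain label C57BL/6N-Cdr1asem1Nikr is the same for both genotypes. Normoxic cultures spent 12 h at 37 °C in 5% CO2 with 25 mM glucose and 0.2 mM pyruvate, and OGD cultures 12 h in 1% O2 and 5% CO2 without either supplement. The series calls the replicates biological, but the labels do not say which cultures or embryos were pooled, so p-values measure the spread between these libraries.

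A miRNA guides an Argonaute protein to messenger RNAs through its seed, bases 2 to 8 of the mature strand, and lowers their translation and stability. The let-7 family is among the most abundant in the mature nervous system, where it marks differentiated cells. The RNA-binding proteins LIN28A and LIN28B block the processing of let-7 precursors in stem cells and early progenitors.

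All 9 mature sequences were found in RefSeq (GRCm38.p6) and are shown because the members differ by so few bases that their reads are hard to tell apart. The seed is in capitals, and each sequence runs 5′ to 3′.
let-7a-5p: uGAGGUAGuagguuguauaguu
let-7b-5p: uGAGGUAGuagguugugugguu
let-7c-5p: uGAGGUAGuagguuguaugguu
let-7d-5p: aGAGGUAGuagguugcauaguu
let-7e-5p: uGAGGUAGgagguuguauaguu
let-7f-5p: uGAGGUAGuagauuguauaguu
let-7g-5p: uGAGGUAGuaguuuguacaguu
let-7i-5p: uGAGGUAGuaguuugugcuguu
miR-98-5p: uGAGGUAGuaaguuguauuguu

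Each strand was 22 bases long and carried the seed GAGGUAG. Relative to let-7a-5p, with positions counted from 1 at the 5′ end, let-7c-5p differed by A19G, let-7e-5p by U9G and let-7f-5p by G12A alone. The let-7b-5p strand differed by A17G and A19G, let-7d-5p by U1A and U16C, let-7g-5p by G12U and U18C, and miR-98-5p by G11A and A19U. The most distant member, let-7i-5p, differed from let-7a-5p at 4 positions, by G12U, A17G, U18C and A19U. Of the 1679 mature names in RefSeq, 11 had this seed. The non-members among them were let-7k, which lay between 0.189 and 4.02 CPM in the 20 libraries, and miR-1961, which was not analysed here. The entry let-7j, with the seed GAGGUAU, lay between 3219 and 5716 CPM.

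The 9 strands come from 12 precursors on 7 chromosomes (RefSeq hairpins on GRCm38, with host genes from the GENCODE annotation). Mirlet7d (48536012 to 48536114), Mirlet7f-1 (48537829 to 48537917) and Mirlet7a-1 (48538179 to 48538272) lie together on the minus strand of chromosome 13, within an exon of the long noncoding RNA 6720427I07Rik. Mirlet7c-2 (85706603 to 85706697) and Mirlet7b (85707319 to 85707403) lie on the plus strand of chromosome 15, within an exon of the noncoding transcript Lncppara. Mirlet7f-2 (151912346 to 151912428) and Mir98 (151913214 to 151913321) lie on the plus strand of the X chromosome in an intron of Huwe1, a ubiquitin ligase gene. Mirlet7g (chromosome 9, 106178840 to 106178927, plus strand) lies in an intron of Wdr82. Mirlet7i (chromosome 10, 122985640 to 122985724, minus strand) lies in an exon of the transcribed pseudogene D630033A02Rik. The other 3 lie near miR-99, miR-100 or miR-125 precursors on the same strand. They are Mirlet7a-2 in an intron of 3110039I08Rik (chromosome 9, 41536716 to 41536811), Mirlet7c-1 in an intron of Mir99ahg (chromosome 16, 77599657 to 77599750) and Mirlet7e in an intron of Spaca6 (chromosome 17, 17830352 to 17830444). Mature let-7a-5p, let-7c-5p and let-7f-5p each have a pair of source loci, and their reads do not show which locus they came from.

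Library totals ran from 1160582 to 12477032 miRNA reads and were lower after OGD: the median total was 8208163 reads for wild-type normoxia and 1992517 for wild-type OGD, and 8854518 and 2552651 in the knockout. Every member was read at least 1357 times in every library, so counting error was small beside the spread between replicates. Without molecular identifiers, reads are not independent molecules. The neuronal markers miR-9-5p (229700 to 307800 CPM) and miR-124-3p (2739 to 6484 CPM) were present in every library, and the summed markers of microglia and blood stayed between 0.743 and 5.59 CPM. The low-oxygen marker miR-210-3p averaged 18.3 ± 6.28 CPM in normoxic and 108 ± 34.7 CPM in OGD wild-type neurons (SD, n = 5), with log2 fold changes of 2.49 (SE 0.26) there and 2.08 (SE 0.27) in knockout neurons. The circular RNA itself is not a feature of miRNA tables, so the genotype labels were not checked on it. Fewer cells of a type and less RNA per cell cannot be told apart in bulk samples.

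The let-7 guide strands together held a large part of all miRNA reads. Their sum averaged 186082 ± 10878 CPM in wild-type normoxia, 178382 ± 10530 in wild-type OGD, 183138 ± 9383 in knockout normoxia and 177793 ± 13727 in knockout OGD (SD, n = 5). CPM (counts per 1000000) here is reads relative to an effective library size that follows the authors' library factors. As a share of all reads the sum was 18.4% ± 0.527, 17.8% ± 0.816, 18.5% ± 0.440 and 17.8% ± 0.758, in the same order. The ranges of all 4 groups overlapped. Knockout OGD replicate 4 was low, at 153657 CPM against 180922 to 187662 CPM in the other libraries of its group, and it held the group's lowest level of 8 of the 9 members. Wild-type normoxic replicate 5 was the lowest of its group for 7 of the 9. As a share of all reads the sum of the knockout library was 16.57%, against 17.56% to 18.5% in the rest of its group. That of the wild-type library was 17.81%, against 17.99% to 18.99%. Both had the highest effective size of their group relative to the total (1.08 and 1.06 times), so part of their low CPM follows from the scaling. Without these libraries the sum averaged 183827 CPM in knockout OGD and 190683 CPM in wild-type normoxia.

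**Figure D1:**
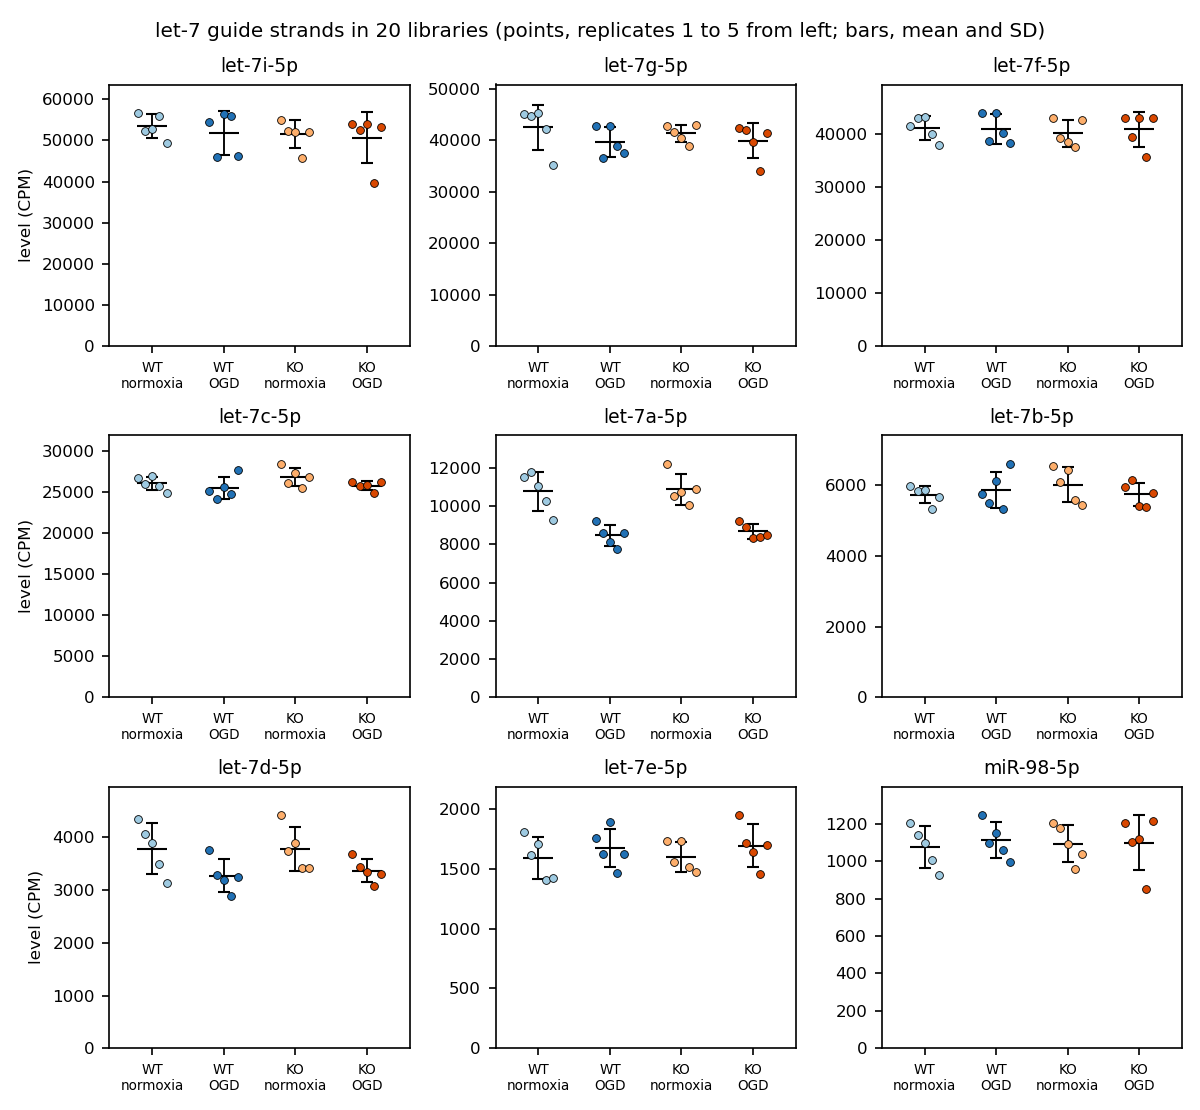
Level of each let-7 guide strand in CPM (vertical axes start at 0 and differ between panels) in the 5 libraries of each group, drawn as points from replicate 1 on the left to replicate 5 on the right, with the mean and SD as bars (WT, wild type; KO, ciRS-7 knockout). Groups are separate for let-7a-5p, whose OGD libraries all lie below the normoxic libraries of the same genotype; for the other 8 members the OGD and normoxic libraries overlap.

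The members kept nearly the same order of abundance in all 4 groups. At the top, let-7i-5p averaged 53430 ± 2971 CPM in normoxic wild-type neurons (SD, n = 5) and ranked 4 among all features by its mean over the 20 libraries. It was followed by let-7g-5p (42504 ± 4325), let-7f-5p (41140 ± 2219) and let-7c-5p (26029 ± 815), which with let-7i-5p took 87.7% ± 0.495 of the family sum. The middle of the family was let-7a-5p (10783 ± 1021), let-7b-5p (5744 ± 253) and let-7d-5p (3785 ± 483). The least abundant were let-7e-5p (1592 ± 175) and miR-98-5p (1075 ± 111), so the family spanned 49.7-fold in that group and 46.1-fold to 47.0-fold in the others. All 9 have the same length, so no length correction applies; the capture of different miRNAs by small RNA libraries is unequal, and the order is one of reads.

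The spread separated nearly all neighbours in that order. The ranges of let-7f-5p and let-7g-5p overlapped in every group, and let-7g-5p had the higher mean in normoxia while let-7f-5p had the higher mean after OGD. In knockout OGD neurons the ranges of let-7i-5p and let-7f-5p also overlapped, because let-7i-5p was at 39750 CPM in replicate 4 and at 52389 to 53995 CPM in the other 4 libraries; within each of the 5 libraries let-7i-5p was still the higher of the pair. No other neighbours overlapped. Between replicates, the coefficient of variation of a member within a group ran from 2.08% (let-7c-5p, knockout OGD) to 13.4% (miR-98-5p, knockout OGD), with a median of 7.90%.

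The first comparison addressed how OGD changed the miRNAs of wild-type neurons. Among the let-7 guide strands, let-7a-5p was the member that changed with the authors' library sizes, whereas all 9 were called lower when libraries were centred on their medians and let-7a-5p was lower but not called under quantile normalization. Its level was 11508, 11794, 11070, 10266 and 9274 CPM in normoxic replicates 1 to 5, and 9227, 8607, 8128, 7783 and 8614 CPM after OGD. The 2 groups did not overlap, although the gap between normoxic replicate 5 and OGD replicate 1 was small. The log2 fold change was -0.34 (SE 0.090, limma adjusted p = 0.00896), a change of -21.3% with a 95% interval from -30.9% to -10.2%. Without normoxic replicate 5 it was -0.40 (adjusted p = 0.00112), and without normoxic replicate 2 it was -0.31, the ends of the range over 10 such fits.

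Thus 1 of 9 members was called lower and 0 of 9 higher in wild-type neurons, with limma's adjusted p under 0.05. Under quantile normalization the counts were 1 lower (let-7d-5p) and 2 higher (let-7f-5p and let-7i-5p), where 12.9% of all features were called lower and 9.54% higher. With the deposited values 2 were lower (let-7a-5p and let-7d-5p), where 7.37% of all features were. With the authors' library sizes, of all 1478 features, 4.40% were called lower and 18.7% higher; among the 71 features with a mean log2 level of at least 10, where all members lie, 14.1% were called lower and 12.7% higher. The members' median log2 fold change was -0.03, against 0.32 over all features and 0.03 over those 71. The groups did not overlap for 19.7% of the 71.

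Of the 8 other members, let-7d-5p had the lowest log2 fold change. It was at 4354, 4065, 3887, 3498 and 3123 CPM in normoxic replicates 1 to 5 and at 3751, 3285, 3190, 2877 and 3241 CPM after OGD. All 5 OGD libraries lay below the normoxic median, but the groups overlapped, and the fitted change of -0.21 on the log2 scale (SE 0.10, limma adjusted p = 0.166) did not pass the threshold. Without normoxic replicate 5, the lowest of its group, it was -0.27 and passed (adjusted p = 0.0398), which raises the count of members called lower to 2. Leaving out each of the 10 libraries in turn gave -0.27 to -0.15, and only this 1 fit passed.

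The remaining 7 members differed by less than their spread in wild-type neurons. Their log2 fold changes were -0.09 (let-7g-5p), -0.05 (let-7i-5p), -0.03 (let-7c-5p), -0.00 (let-7f-5p), 0.03 (let-7b-5p), 0.05 (miR-98-5p) and 0.07 (let-7e-5p). The adjusted p-values of the 8 members other than let-7a-5p ran from 0.166 to 0.975, and 0 of them had an unadjusted p under 0.05, as 34.2% of all features did. The 95% intervals of these 8 all included 0; their lowest bound was -25.5% (let-7d-5p) and their highest 21.9% (let-7e-5p). Without normoxic replicate 5 the 7 values ran from -0.16 (let-7g-5p, adjusted p = 0.176) to 0.03 (let-7e-5p), with let-7i-5p at -0.08, and none passed.

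The same comparison was made in neurons without ciRS-7, where let-7a-5p again fell. It was at 12230, 10538, 10721, 10080 and 10890 CPM in normoxic replicates 1 to 5 and at 9237, 8906, 8336, 8404 and 8512 CPM after OGD. The groups did not overlap, and every OGD library was below the lowest normoxic one. The log2 fold change was -0.33 (SE 0.072, limma adjusted p = 0.00274), a change of -20.2% with a 95% interval from -28.2% to -11.3%. Without OGD replicate 4 it was -0.31 (adjusted p = 0.00616).

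Again 1 of 9 members was called lower and 0 of 9 higher with the authors' library sizes, against 9 lower with median centring and 0 in either direction with quantile normalization, where 12.6% of all features were called lower and 9.53% higher. With the authors' library sizes, of all 1479 features, 5.75% were called lower and 18.8% higher, and of the 72 with a mean log2 level of at least 10, 16.7% and 20.8%. The members' median log2 fold change was -0.05, against 0.24 over all features and 0.02 over those 72. The groups did not overlap for 31.9% of those 72 features.

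In knockout neurons let-7d-5p was at 4429, 3734, 3883, 3421 and 3418 CPM in normoxia and at 3680, 3433, 3340, 3079 and 3310 CPM after OGD. The groups overlapped, and its log2 fold change was -0.16 (SE 0.084, limma adjusted p = 0.188). The values for the other 7 members were -0.06 for let-7b-5p, -0.06 for let-7c-5p, -0.05 for let-7g-5p, -0.03 for let-7i-5p, -0.00 for miR-98-5p, 0.02 for let-7f-5p and 0.08 for let-7e-5p. None of the 8 passed the threshold, with adjusted p-values from 0.188 to 0.995 and 0 unadjusted p-values under 0.05 in limma, against 34.3% of all features. Without OGD replicate 4 the 8 values ran from -0.13 (let-7d-5p) to 0.13 (let-7e-5p), with let-7i-5p at 0.06, let-7f-5p at 0.07 and miR-98-5p at 0.09, and none passed.

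**Figure D2:**
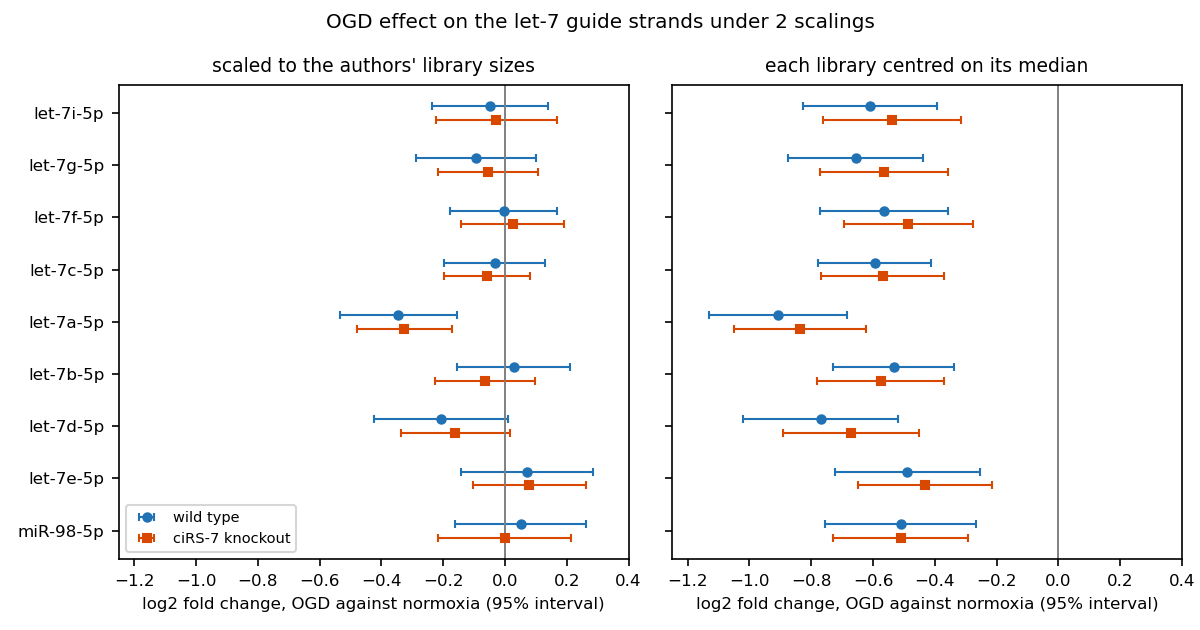
OGD effect on each let-7 guide strand as a log2 fold change with its 95% interval, in wild-type (circles) and ciRS-7 knockout (squares) neurons. With the authors' library sizes (left) the intervals of let-7a-5p alone lie below 0, at -0.34 and -0.33; with each library centred on its median (right) all 9 members lie below 0 in both genotypes, and let-7a-5p is lowest.

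The number of called members changed with the scaling. Setting every library's median to the same value moved all changes down by 0.561 (log2) in wild-type and 0.510 in knockout neurons, and all 9 members were then called lower in both genotypes by limma. Their log2 fold changes ran from -0.91 for let-7a-5p to -0.49 for let-7e-5p in wild-type neurons, and from -0.84 to -0.43 for the same members in knockout neurons. After this centring 17.9% of all features in wild-type and 21.9% in knockout neurons were called lower, and 77.5% of the 71 and 77.8% of the 72 abundant ones, a share that the members are read against. Under quantile normalization let-7a-5p was lower but not called, at -0.19 in both genotypes (limma adjusted p = 0.101 in wild type and 0.0676 in knockout), let-7d-5p was called lower in wild type (-0.31, adjusted p = 0.0226), and let-7f-5p (0.16, adjusted p = 0.0364) and let-7i-5p (0.22, adjusted p = 0.00529) were called higher there.

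**Figure D3:**
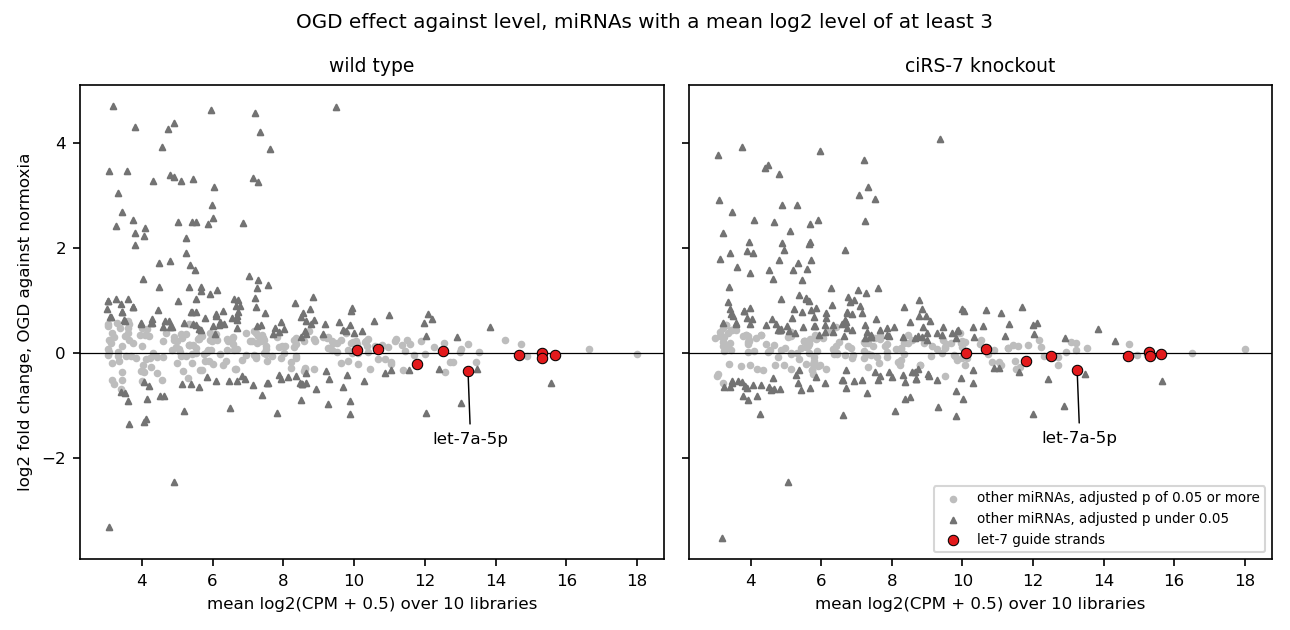
Log2 fold change of OGD against normoxia plotted against mean log2 level for the 425 (wild type, left) and 420 (knockout, right) miRNAs with a mean log2 level of at least 3. With the authors' library sizes, the let-7 guide strands are large points at the abundant end, close to 0 apart from let-7a-5p (-0.34 and -0.33); the largest rises are among rarer miRNAs.

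Ratios within the family do not depend on library size, and there too let-7a-5p moved against its relatives. Its share of the family sum was 5.90%, 6.19%, 5.76%, 5.54% and 5.53% in normoxic wild-type replicates 1 to 5, and 4.90%, 5.21%, 4.29%, 4.37% and 5.04% after OGD. In knockout neurons it was 6.27%, 5.78%, 5.89%, 5.96% and 5.84% in normoxia, and 4.92%, 4.92%, 4.57%, 5.47% and 4.62% after OGD. The OGD libraries were below the normoxic ones without overlap in both genotypes, with mean differences of -1.02 and -1.04 percentage points. The share of let-7f-5p differed by about as many points, 0.888 in wild-type and 1.08 in knockout neurons, with the higher mean after OGD, but its libraries overlapped, as did those of the 7 other members in both genotypes.

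**Figure D4:**
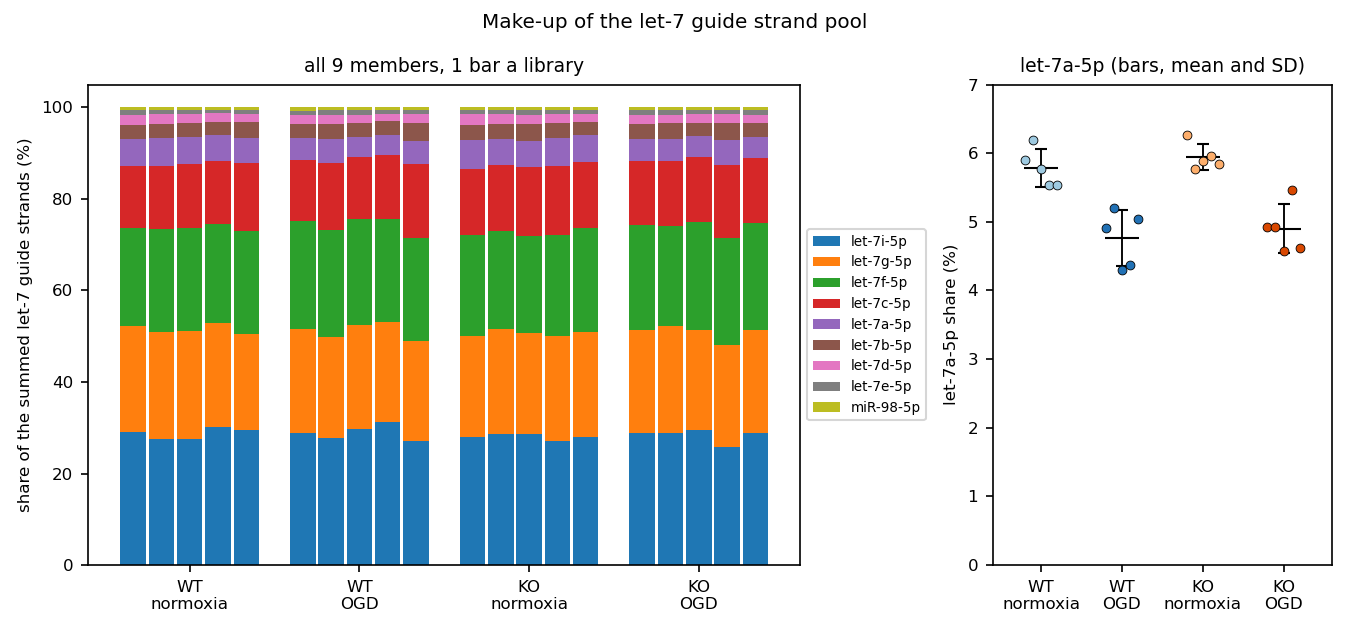
Share of each member in the summed let-7 guide strands, in percent, as 1 stacked bar for each of the 20 libraries (left), and the share of let-7a-5p alone with the mean and SD of each group (right). The share of let-7a-5p goes from 5.79% to 4.76% with OGD in wild-type and from 5.94% to 4.90% in knockout neurons, with no overlap between OGD and normoxia; the shares of the other 8 members overlap.

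Paired with each of the 8 others in turn, let-7a-5p was lower after OGD without overlap for 6 members (75.0%) in each genotype. The exceptions were let-7d-5p and let-7i-5p in wild-type neurons, and let-7i-5p and miR-98-5p in knockout neurons. Of the 28 ratios between members other than let-7a-5p, 2 (7.14%) were separate in wild-type neurons and 1 (3.57%) in knockout neurons, and each of these involved let-7d-5p. The log2 ratio of let-7a-5p to let-7e-5p, from which it differs by U9G, went from 2.76 ± 0.0984 to 2.34 ± 0.133 in wild-type neurons (SD, n = 5) and from 2.77 ± 0.0977 to 2.36 ± 0.107 in knockout neurons. The 8 ratios share the reads of let-7a-5p and are not independent.

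Because let-7a-5p differs by 1 base from let-7c-5p, let-7e-5p and let-7f-5p, their mean levels are set beside its own. In wild-type neurons the mean of let-7a-5p fell by 2311 CPM, while the differences were -587 CPM for let-7c-5p, 79 CPM for let-7e-5p and -84 CPM for let-7f-5p. In knockout neurons let-7a-5p fell by 2213 CPM, beside -1083, 94 and 726 CPM. The way reads that fit more than one member were assigned is not given in the sources used here, and its part in the result was not tested.

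The next comparisons addressed whether the loss of ciRS-7 changed the let-7 guide strands. In normoxia 0 of 9 members were called, where 0% of all 1481 features were called; 47 features (3.17%) and 0 members had an unadjusted limma p under 0.05. For let-7a-5p the wild-type mean was 10783 ± 1021 CPM and the knockout mean 10892 ± 807 CPM (SD, n = 5), with a log2 difference of 0.02 (SE 0.087, limma adjusted p = 0.995). Over the 9 members the differences ran from -0.06 (let-7i-5p) to 0.07 (let-7b-5p), and their 95% intervals reached from -14.8% to 17.5%. Without wild-type normoxic replicate 5 they ran from -0.10 (let-7g-5p) to 0.06 (let-7b-5p), with let-7i-5p at -0.08 and let-7a-5p at -0.04, and none passed.

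After OGD 0 of 9 members were again called, with 0% of all 1481 features called; 108 features (7.29%) and 0 members had an unadjusted limma p under 0.05. There let-7a-5p averaged 8472 ± 548 CPM with the wild-type and 8679 ± 382 CPM with the knockout genotype (SD, n = 5), a log2 difference of 0.04 (SE 0.083, limma adjusted p = 0.968). The differences ran from -0.03 (let-7i-5p) to 0.05 (let-7d-5p), with 95% intervals from -15.0% to 17.2%. Without knockout OGD replicate 4 they ran from -0.01 (let-7b-5p) to 0.08 (let-7d-5p), with let-7i-5p at 0.05, and none passed. Every member's groups overlapped between genotypes in both conditions; among features with a mean log2 level of at least 10 the groups were separate for 0% in normoxia and 1.27% after OGD.

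The OGD effects of the 2 genotypes were compared with an interaction term over all 20 libraries. No member differed: 0 of 9 were called, as were 0% of all features, and 74 features (5.00%) and 0 members had an unadjusted limma p under 0.05. The difference was 0.02 for let-7a-5p (SE 0.11, limma adjusted p = 0.990, 95% interval from -0.21 to 0.24 on the log2 scale). The values ran from -0.09 (let-7b-5p) to 0.05 (let-7d-5p). Without wild-type normoxic replicate 5 they ran from -0.09 (let-7b-5p) to 0.11 (let-7d-5p, with let-7g-5p at 0.11), and without knockout OGD replicate 4 from -0.07 (let-7b-5p) to 0.11 (let-7i-5p); none passed. All 9 intervals included 0, with a lowest bound of -21.2% and a highest of 24.8%.

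**Figure D5:**
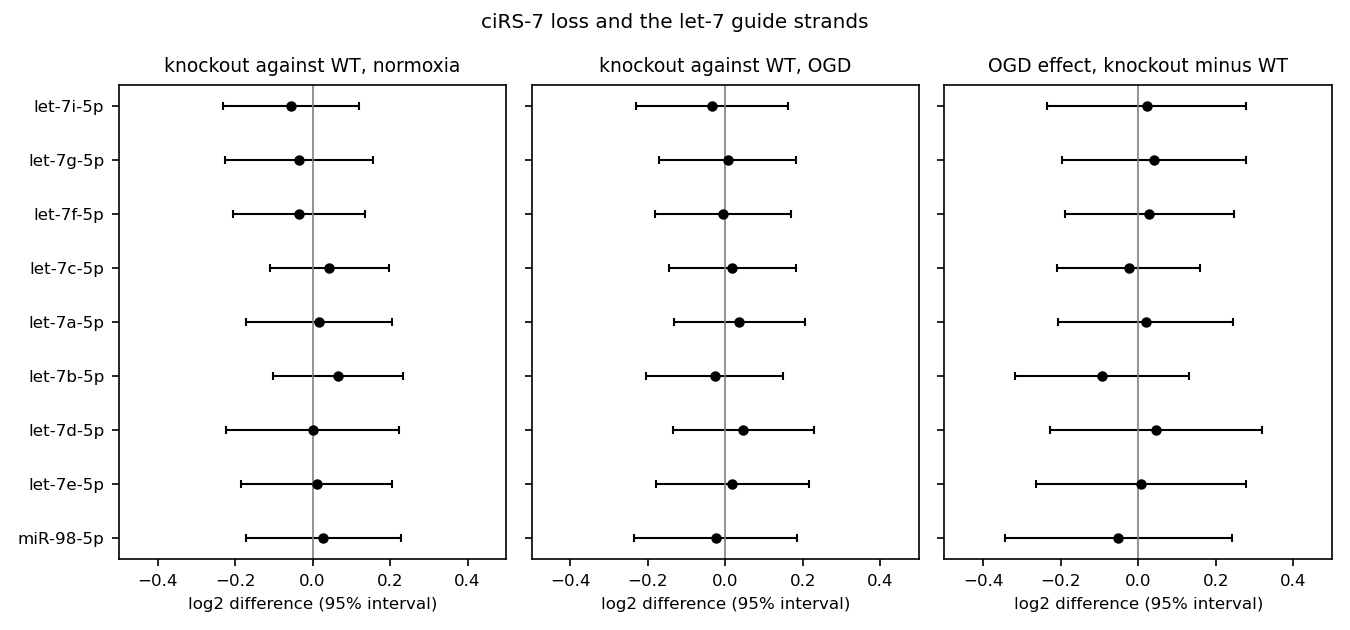
Log2 difference between ciRS-7 knockout and wild-type neurons for each let-7 guide strand in normoxia (left) and after OGD (middle), and how far the OGD effect differed between them (right), with 95% intervals. All 27 intervals include 0, and the point values lie between -0.09 and 0.07.

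The opposite arms of the same hairpins, which are mostly degraded when the guide is loaded, are described by counts together with let-7j and let-7k (13 entries). In wild-type neurons 3 of 13 were called higher and 4 lower by limma with OGD, and in knockout neurons 2 and 5 (1 and 7, and 1 and 6, with median centring). Over all features 18.7% were called higher and 4.40% lower in wild type and 18.8% and 5.75% in knockout, and with centring 7.31% and 17.9% in wild type and 7.57% and 21.9% in knockout. These entries include let-7a-1-3p and let-7c-2-3p, which have one sequence and equal reads in every library. The largest rise was that of let-7f-2-3p, from 7.52 ± 7.86 to 125 ± 51.5 CPM in wild-type and from 6.53 ± 2.91 to 93.4 ± 75.2 CPM in knockout neurons (SD, n = 5; log2 fold changes 4.26 and 3.58), where 1 library stood above the rest in wild-type normoxia (21.53 CPM) and in knockout OGD (225.7 CPM). The next called rise was that of miR-98-3p, at 0.57 in wild type (limma adjusted p = 0.0469, but -0.05 under quantile normalization) and 0.64 in knockout (adjusted p = 0.00508, but 0.14 and not called under quantile normalization). With median centring miR-98-3p was at 0.010 in wild type and 0.13 in knockout and was not called (limma adjusted p = 0.984 and 0.578). The largest fall was that of let-7c-1-3p, from 71.2 ± 16.5 to 12.9 ± 4.83 CPM and from 79.0 ± 8.20 to 14.2 ± 3.34 CPM (log2 fold changes -2.47 and -2.47), followed by let-7b-3p in wild type (-0.60) and let-7e-3p in knockout (-0.69). In wild-type neurons the call of miR-98-3p ended without any 1 of 8 libraries, all but OGD replicates 4 and 5, and that of let-7b-3p without normoxic replicate 1, 2 or 5 or OGD replicate 3, 4 or 5; the values were then 0.45 to 0.61 and -0.66 to -0.44. The guides of these hairpins, let-7f-5p, miR-98-5p, let-7c-5p, let-7b-5p and let-7e-5p, were not called in either genotype with the authors' library sizes; all 5 were called lower with median centring, and let-7f-5p higher in wild type under quantile normalization. Both arms come from 1 precursor for let-7b, let-7d, let-7e, let-7g, let-7i and miR-98, and the ratio of mean levels moved in both directions. The guide let-7d-5p exceeded let-7d-3p 6.08-fold in wild-type normoxia and 4.53-fold after OGD, and 5.80-fold and 4.42-fold in knockout neurons. The ratio was also lower after OGD in both genotypes for let-7g, whose opposite arm had as few as 2 reads in a library, let-7i and miR-98. It was higher for let-7b, at 132-fold and 203-fold in wild-type and 134-fold and 173-fold in knockout neurons, and for let-7e, at 56.5-fold and 86.0-fold in wild-type and 50.4-fold and 86.9-fold in knockout neurons. Library by library, the ratios in OGD and normoxia were separate in both genotypes for let-7d only. They overlapped in both for let-7g, in knockout for let-7i and let-7b, and in wild type for miR-98 and let-7e.

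Among the miRNAs that lie near let-7 precursors, 0 of 5 were called in either genotype by limma after OGD, and 1 (miR-125a-5p in wild type) had an unadjusted p under 0.05. Of all features, 34.2% in wild type and 34.3% in knockout had an unadjusted p under 0.05. The 2 that lie with let-7e, miR-99b-5p and miR-125a-5p, had log2 fold changes of -0.17 and -0.32 in wild-type neurons and -0.09 and -0.15 in knockout neurons. The guides miR-99a-5p, miR-100-5p and miR-125b-5p, near let-7c-1 or let-7a-2, were at 0.07, 0.01 and -0.06 in wild type and at 0.00, 0.10 and -0.04 in knockout. Without normoxic replicate 5, miR-125a-5p was at -0.40 in wild-type neurons and passed (adjusted p = 0.0336). The shares called among abundant features were those given for the members. With libraries centred on their median all 5 were called lower in both genotypes, as were the 9 let-7 guide strands and 77.5% (wild type) and 77.8% (knockout) of the abundant features.

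Other miRNAs were compared with the let-7 guide strands by the root mean square difference between profiles over the 20 libraries, each centred on its own mean, with the mean of the members as the reference. Of 230 other features with a mean log2 level of at least 6, the 5 nearest were miR-532-5p (0.0759), miR-298-5p (0.0859), miR-9-5p (0.0896), miR-9b-3p (0.0902) and miR-30e-3p (0.0948), in log2 units. The median over the 230 features was 0.262. Among the members, let-7g-5p (0.0523), let-7f-5p (0.0670) and let-7c-5p (0.0683) were nearer to the family mean than any of the 230 features, though each member is itself part of that mean and is nearer to it in part by construction. The farthest member was let-7a-5p (0.148), with 23 other features nearer to the family mean than it was.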

How the data were processed

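The labels describe 20 small RNA libraries (TRIzol RNA, NEBNext small RNA kit, size selection) in 4 groups of 5. The authors deposited 6 tables of a score, one for each pair of groups. By its values, which no header explains, the score is the read count times a library factor, raised to a power of 0.106 to 0.118, with each group's extremes moved 64% of the way to their neighbour. Undoing this gave whole reads for 100% of values (tolerance 0.05; 73.5% to 75.4% without restoring the extremes). The submitters' processing notes name the build mm10; the aligner and counting rule are not given in the sources used here.

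Levels are CPM, reads per 1000000 of an effective library size that follows the authors' library factors. The scores give these factors only relative to each other. Their common scale was set here so that sizes matched the totals on average (log scale), at 0.923 to 1.08 times the total. limma 3.58.1 (R 4.3.3; lmFit, eBayes with a trend) was run on log2(CPM + 0.5), two-sided, over all features of a table, with Benjamini-Hochberg adjustment and a threshold of 0.05. The fit used no block, and the genotype difference in OGD effect was an interaction term. The procedure was tested on simulated data. The fold changes given are therefore on that scale, which understates the change of rare miRNAs. A floor of 3 reads corresponds to 0.249 to 2.55 CPM and covers counting error only.

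All 9 members are named; of the opposite arms with let-7j and let-7k, the 2 with the largest called change in each direction; the 5 neighbours; miR-210-3p; and the 5 features most like the family. The neuron markers were miR-124-3p, miR-128-3p, miR-9-5p and miR-138-5p (summed 287537 to 385903 CPM); those of other cells, summed, were 5.86 to 15.3 CPM for oligodendrocytes, 306 to 446 CPM for vessels and 65.3 to 109 CPM for muscle and liver. The members and lists were chosen with earlier results of these data known. Alternatives tried were other pseudocounts, a filter on low values, median centring, quantile normalization, the deposited values, limma voom, thinning to 1160582 reads, a replicate block, the block with centring, and leaving out each replicate.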

Additional observations from a re-analysis of the deposited data

Results flagged for a closer look

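In groups of 5, the highest or lowest library was set apart where its gap to the next exceeded 0.71 of the group's range, a limit that chance passes in about 1 of 20 groups. It was passed in 10 of the 120 groups examined (8.33%).

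Of these, 4 were in knockout OGD replicate 4. Its let-7 guide strand sum was 153657 CPM against 180922 to 187662 CPM in the other 4 libraries, and its let-7i-5p level was 39750 CPM against 52389 to 53995 CPM. Its share of let-7i-5p in the family was 25.87% against 28.77% to 29.55%, and that of let-7c-5p was 16.16% against 13.94% to 14.23%. As a share of all reads the guide strand sum of this library was 16.57% against 17.56% to 18.5%, a relatively smaller gap than in CPM.

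The other 6 were in miR-210-3p and in opposite arms of let-7 hairpins, which are not guide strands. The level of let-7f-2-3p was 21.53 CPM in wild-type normoxic replicate 5 against 3.091 to 4.912 CPM in the rest of its group, and 225.7 CPM in knockout OGD replicate 5 against 41.62 to 80.2 CPM. For let-7c-1-3p it was 93.61 CPM in knockout normoxic replicate 3 against 74.29 to 76.93 CPM, and 8.358 CPM in knockout OGD replicate 5 against 14.23 to 16.32 CPM. For miR-210-3p it was 47.18 CPM in wild-type OGD replicate 5 against 110.6 to 128 CPM, and 47.74 CPM in knockout normoxic replicate 3 against 15.94 to 24.14 CPM.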

How the results depend on the processing

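let-7a-5p was lower after OGD under every alternative run. Its log2 fold change ran from -0.906 to -0.185 in wild-type neurons (limma adjusted p from 1.7e-07 to 0.101) and from -0.836 to -0.19 in knockout neurons (2.2e-08 to 0.0676), and quantile normalization alone ended its call. Leaving out 1 library at a time gave -0.398 to -0.311 (adjusted p from 0.00112 to 0.0378) and -0.353 to -0.283 (0.00319 to 0.00868). The counts of called members were less stable; the causes were not tested. Median centring, with or without the block, called 9 members lower in both genotypes. The deposited values called 2 lower in wild-type neurons, let-7a-5p and let-7d-5p (-0.401 in units of the deposited score, not log2, limma adjusted p = 0.0165). That score has each group's extremes moved toward their neighbour, which narrows the spread within groups. Quantile normalization called 2 higher in wild-type neurons and 0 lower in knockout neurons. Leaving out a library gave 1 to 2 members lower in wild-type neurons, with 2 only without normoxic replicate 5. Between genotypes 0 members were called under any of these settings. Over all features the deposited values called 27 higher and 6 lower in normoxia and 23 and 49 after OGD, thinning called 1 and 2 after OGD, and limma voom and the other settings run on all libraries called 0; the interaction was not run on the deposited values. With miR-9-5p taken out of the total, the family sum averaged 249900, 240998, 250106 and 244766 CPM in the wild-type normoxic, wild-type OGD, knockout normoxic and knockout OGD groups.

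Values near 0 changed sign. With median centring, alone or with the block, wild-type log2 fold changes were -0.533 (let-7b-5p), -0.489 (let-7e-5p), -0.511 (miR-98-5p), -0.496 (miR-99a-5p) and -0.552 (miR-100-5p), and knockout ones -0.431 (let-7e-5p), -0.486 (let-7f-5p), -0.51 (miR-99a-5p) and -0.415 (miR-100-5p). With quantile normalization wild-type values were -0.00536 (let-7e-5p), 0.156 (let-7f-5p), 0.224 (let-7i-5p), -0.0731 (miR-98-5p), -0.0306 (miR-100-5p) and -0.0471 (miR-98-3p), and knockout ones 0.138 (let-7b-5p), -0.0804 (let-7e-5p), 0.181 (let-7i-5p) and 0.0235 (miR-99b-5p). In knockout neurons the deposited values gave differences of 0.016 (let-7i-5p) and 0.0503 (miR-98-5p) in units of the score, not log2. For miR-99a-5p voom gave -0.00801 and thinning -1.4e-04 there, on the log2 scale. Between genotypes, centring gave log2 differences of -0.0216 for let-7a-5p in normoxia and 0.0467 for let-7i-5p after OGD. The deposited values gave -0.0204 and 0.0422 for the same differences, in score units whose size cannot be set against log2 values. Quantile normalization gave interactions of -0.0119 (let-7a-5p) and 0.0251 (let-7b-5p).

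Leaving out a library also moved values across 0. In wild-type neurons the ranges were -0.016 to 0.0618 (let-7b-5p), -0.0327 to 0.0198 (let-7f-5p), -0.00222 to 0.0935 (miR-98-5p), -0.0256 to 0.0531 (miR-100-5p) and -0.138 to 0.0281 (miR-125b-5p). In knockout neurons they were -1.3e-04 to 0.0716 (let-7f-5p), -0.077 to 7.4e-04 (let-7g-5p), -0.0699 to 0.057 (let-7i-5p), -0.0471 to 0.0879 (miR-98-5p), -0.0341 to 0.0493 (miR-99a-5p) and -0.0763 to 0.00981 (miR-125b-5p). Between genotypes they were -0.0361 to 0.0505 for let-7a-5p in normoxia, -0.0764 to 0.0504 for let-7i-5p after OGD and -0.0144 to 0.0723 for the let-7a-5p interaction.

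Same-numbered libraries deviated together in some pairs and not in others (correlations from -0.166 to 0.657 in wild-type and from -0.211 to 0.491 in knockout neurons), and not every library correlated best with its own number, so the numbers were not taken as pairs. With the replicate block let-7a-5p had adjusted p-values of 0.00186 and 3.0e-04, and no member's call changed. Each member had at least 1357 reads in every library, and totals were lower after OGD; thinning all libraries to 1160582 reads changed no member's call.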
